A study of Mus musculus with 2 samples.

Results

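Kelch-like and ASB proteins choose what a cullin-RING ubiquitin ligase acts on. The kelch proteins (Klhl and Kbtbd genes) hold a BTB domain that binds the scaffold cullin-3 and a kelch propeller that binds the substrate. The ASB proteins hold ankyrin repeats that bind the substrate and a SOCS box that recruits elongins B and C with cullin-5. Several of them are found mainly in striated muscle, where kelch members guard or remove sarcomere proteins, and mutations in some cause nemaline myopathy. The genes described here are all those whose name on the array began with Klhl, Kbtbd or Asb followed by a digit. There were 61 of them among 34740 gene names on the array, 43 kelch genes (33 listed as Klhl and 10 as Kbtbd) and 18 ASB genes, with 86 probes in all. Kbtbd5 and Kbtbd10 on the array are now Klhl40 and Klhl41, and the current symbols are used.

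Both samples were total RNA of skeletal muscle from male CD2F1/Slc mice aged 11 weeks. The control mice received PBS. The C26 mice received 1000000 cells of the C26 line, a colon carcinoma, placed under the skin of a flank in 100 µL of PBS; such tumours model cancer cachexia, the loss of muscle that goes with some cancers. Each sample was hybridised to 1 array, and nothing in the sources used here says which muscle was taken, whether RNA of several mice was pooled, or how long the tumours grew. Variation from mouse to mouse therefore has no measure here, no p-value is given, and every value below describes this pair of arrays. The error given with a log2 ratio is the scanner software's error for the spot, carried to the log2 scale, and covers spot measurement alone. The number of arrays is what limits the precision.

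Of the 61 genes, 51 were measured, which means that both arrays put the brightest probe well above background. Another 3 passed that mark in the C26 sample only, and 7 in neither sample. A level is given as the scaled signal, the spot's processed intensity after both arrays were set to the same 75th percentile, and levels of different genes are not compared because probes differ in brightness for their own reasons. Among the 51 measured genes, 2 were at least 2-fold higher in the C26 sample, Klhl38 and Asb2, or 3.92% against 1.25% of all 19668 measured genes. None of the 51 was at least 2-fold lower, against 1.15% of all measured genes, and 2.39% of all passed 2-fold in either direction. At 1.5-fold, 3 were higher (Klhl38, Asb2 and Asb11) and 3 lower (Klhl6, Asb18 and Klhl29), each 5.88%, against 4.37% and 4.83% of all measured genes. In either direction that is 11.8% against 9.19%, so the family's shares at 1.5-fold lay near the background. With a stricter filter on dim probes, which kept 42 of the genes, 2 were 2-fold higher (1.1% of 15524 genes), 3 were 1.5-fold higher (3.52%) and 1 was 1.5-fold lower (3.65%). The median log2 ratio of the 51 genes was 0.04, the same as that of all measured genes. Of the 51 genes, 30 lay above 0, or 58.8%, against 56.5% of all measured genes.

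**Figure D1:**
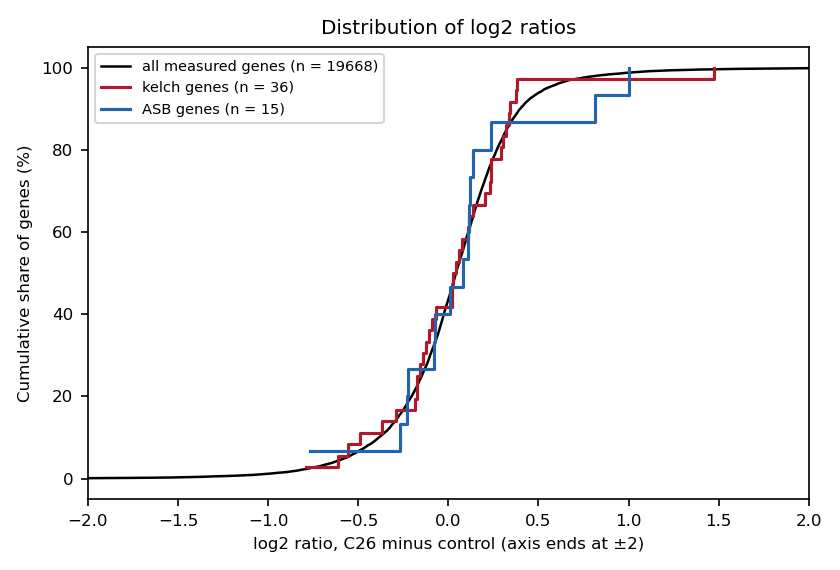
Cumulative share of genes (vertical axis, percent) against the log2 ratio of C26 minus control (horizontal axis) for all 19668 measured genes, the 36 measured kelch genes and the 15 measured ASB genes. The kelch and ASB lines follow the line of all genes through the middle, with medians of 0.03 and 0.08, and leave it at Klhl38 (1.48), Asb2 (1.00) and Asb11 (0.81).

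The kelch genes found mainly in striated muscle held the highest ratio of the family, that of Klhl38, while the other 7 lay within 1.5-fold. Klhl38, a kelch gene of striated muscle whose substrates are little known, had a scaled signal of 601 in the control and 1672 in the C26 sample. It was thus 2.78-fold higher in the C26 sample, with a log2 ratio of 1.48 (error 0.20), the highest of the 51 genes and the 85th highest of the 19668. The ratio is several times the spot error, and it rests on 1 spot per array. Under the other scalings, normexp correction and the deposited table it was slightly lower, between 1.37 and 1.43.

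The nemaline myopathy genes and their relatives differed far less than Klhl38. Klhl40, which stabilises nebulin and leiomodin-3 in the thin filament, had 4041 in the control and 4253 in the C26 sample, a log2 ratio of 0.07 (error 0.20). Klhl41, a partner of nebulin and of NRAP in myofibril assembly, had 9466 and 11094, a log2 ratio of 0.23 (error 0.20). Klhl30 had 7324 and 6796, a log2 ratio of -0.11. The ratios of Klhl40 and Klhl30 lay within the spot error and that of Klhl41 just beyond it. Klhl34 had 559 and 697, a log2 ratio of 0.32, and Kbtbd12 had 254 and 257, a log2 ratio of 0.02. Klhl31, a muscle kelch gene linked to filamin C, had 20540 in the control and 16762 in the C26 sample, a log2 ratio of -0.29 (error 0.20). Its second probe, at 1935 and 1506, gave -0.36, so both probes were lower in the C26 sample by a little more than the spot error.

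Kbtbd13, whose mutations slow muscle relaxation in nemaline myopathy, gave different directions with its probes. The brighter probe had 455 in the control and 310 in the C26 sample, a log2 ratio of -0.56 (error 0.21). The dimmer one had 52.1 and 61.0, a log2 ratio of 0.23 (error 0.24). Their gap of 0.78 was the widest among the 11 genes with several measured probes, and the mean of both was -0.16. With median scaling, loess or a 75th percentile over detected probes the brighter probe passed 1.5-fold lower, at -0.59 to -0.61. The probes lie in separate places on mm9, at chr9:65237263-65237322 for the brighter and chr9:65238167-65238226 for the dimmer, both on the minus strand. The start of each is shown because the direction of Kbtbd13 rests on which is read; the first 30 of the 60 bases are given 5′ to 3′ and no base is marked.
Kbtbd13 brighter probe: tacagtagctttaaggactggaatggaaag
Kbtbd13 dimmer probe: ttggtctatgccattgaagatggcacctgg

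**Figure D2:**
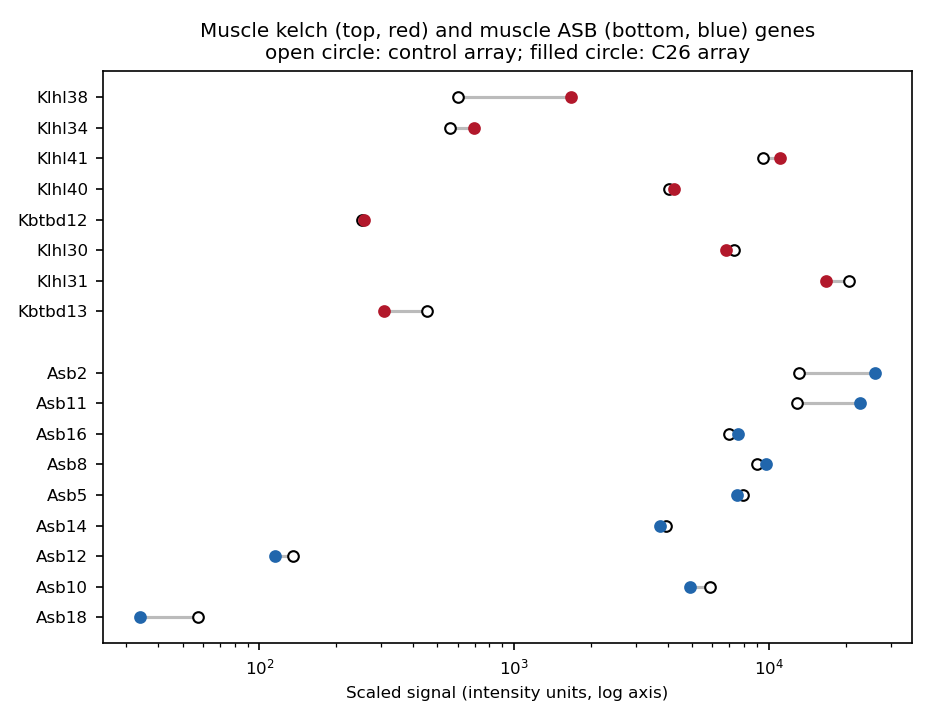
Scaled signal (horizontal log axis, intensity units) of the 8 measured muscle kelch genes and 9 measured muscle ASB genes in the control (open circles) and C26 sample (filled circles), 1 array per group. The wide gaps are those of Klhl38 (601 to 1672), Asb2 (13061 to 26123) and Asb11 (12938 to 22717), and the positions of different genes along the axis are not comparable.

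Among the ASB genes of striated muscle, Asb2 and Asb11 were the ones past 1.5-fold on the higher side. Asb2, whose muscle form marks filamins and desmin for breakdown and restrains muscle mass, had a scaled signal of 13061 in the control and 26123 in the C26 sample. Its log2 ratio of 1.00 (error 0.20) put it exactly on the 2-fold line, and under each other scaling and under normexp correction it fell just short, between 0.86 and 0.98. Asb11, known from zebrafish as a regulator of Notch signalling, had 12938 and 22717, a log2 ratio of 0.81 (error 0.20). A second Asb11 probe that does not overlap the first had 9869 and 19031, a log2 ratio of 0.95 (error 0.20). Both Asb11 probes were therefore between 1.5-fold and 2-fold higher in the C26 sample. The first was slightly lower under the other scalings and normexp, between 0.69 and 0.79. All these spots were bright: the lowest scaled signal well above background was 18.1 in the control and 14.5 in the C26 sample.

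The probes behind these values are shown by their first 30 of 60 bases, 5′ to 3′, with no base marked. The Klhl38 probe lies at chr15:58146202-58146261 and the Asb2 probe at chr12:104559752-104559811, both on the minus strand of mm9. The Asb11 probes lie at chrX:160896951-160897010 and chrX:160897036-160897095, on the plus strand.
Klhl38 probe: aaatgccagtgaatgcttttcaaaaattcc
Asb2 probe: cctggacacactgccgcttcccggcaggct
Asb11 first probe: cctggtgctagggtcagcattatgaatact
Asb11 second probe: cactccttctccggtatattttgttagttt

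Apart from Asb18, the brightest probes of the other muscle ASB genes differed little between the samples. Asb5, expressed in muscle satellite cells, had 7914 in the control and 7522 in the C26 sample, a log2 ratio of -0.07. Asb8 had 8991 and 9703, a log2 ratio of 0.11, and its second probe gave 0.06. Asb14 had 3935 and 3729, a log2 ratio of -0.08. These 3 genes lay within the spot error of 0 (0.20 each). Asb16 had 6940 and 7535, a log2 ratio of 0.12. A second, dim Asb16 probe passed the background mark in the C26 sample only, at 20.6 and 32.9, a log2 ratio of 0.67 (error 0.40). Asb10 had 5882 and 4890, a log2 ratio of -0.27, and its second probe gave -0.38; Asb12 had 136 and 116, a log2 ratio of -0.23. Asb10 was the clearer of the lower ones, since both of its probes passed the spot error in the same direction.

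Asb18 was the lowest measured ASB gene, at 57.7 in the control and 33.9 in the C26 sample, a log2 ratio of -0.77 (error 0.26). It was a dim gene, and its second measured probe had 42.9 and 37.9, a log2 ratio of -0.18 (error 0.27). With the mean of both the ratio was -0.47, and it was -0.34 after normexp correction of the background, whose offset of 50 draws dim genes toward 0. Asb15, an ASB gene linked to muscle growth, was not well above background on either array (9.37 and 5.29), so it has no ratio here.

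**Figure D3:**
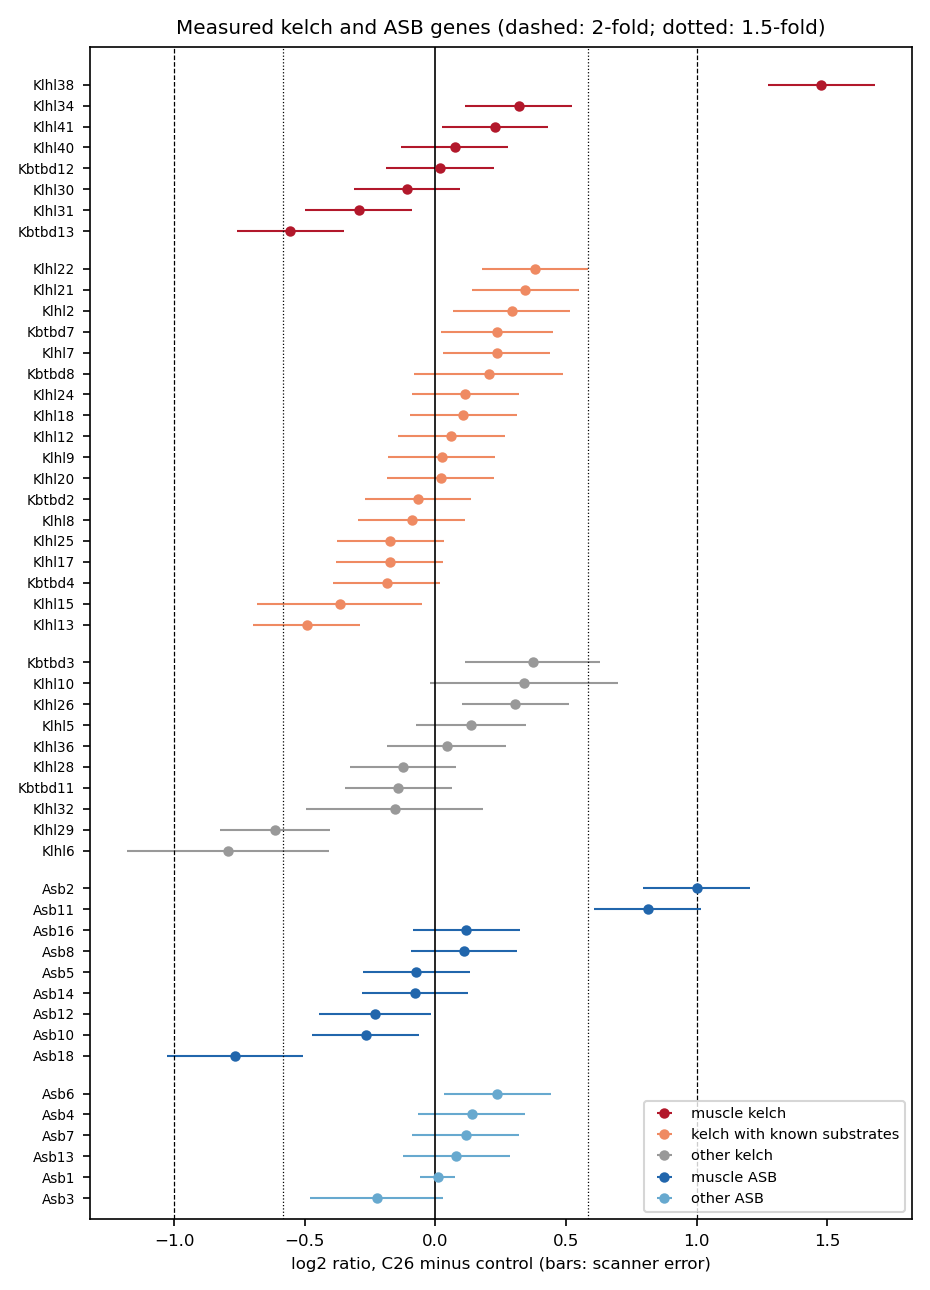
log2 ratio of C26 minus control (horizontal axis) for each of the 51 measured genes in 5 groups, with the scanner software's error as bars; dashed lines mark 2-fold and dotted lines 1.5-fold. Klhl38 at 1.48 lies beyond the 2-fold line and Asb2 on it, Klhl6, Asb18 and Klhl29 lie past 1.5-fold on the lower side, and the remaining genes lie between the dotted lines, apart from Asb11 at 0.81.

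Kelch genes with known substrates in many tissues showed no difference past 1.5-fold. All 18 measured lay between -0.49 and 0.38, and their median was 0.04. Of the 18, 11 lay above 0 (61.1%, against 56.5% of all measured genes). The highest was Klhl22, which targets DEPDC5, a brake on mTORC1, with 3860 in the control and 5028 in the C26 sample, a log2 ratio of 0.38 (error 0.20). Its second measured probe gave the same 0.38, at 1523 and 1982. Klhl21, which acts on Aurora B in cell division, had 8704 and 11048, a log2 ratio of 0.34 (error 0.20). Klhl22 and Klhl21 were thus both higher in the C26 sample by more than the spot error.

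The lowest of this group was Klhl13, at 447 in the control and 318 in the C26 sample, a log2 ratio of -0.49 (error 0.20). Klhl9, which works with Klhl13 and Klhl21 on Aurora B and also targets IRS1, had 4712 and 4793, a log2 ratio of 0.02. The partners Klhl9, Klhl13 and Klhl21 therefore did not share a direction in these arrays. Kbtbd2, which removes the p85 alpha subunit of PI3-kinase and so sustains insulin signalling, had 2419 and 2309, a log2 ratio of -0.07. Klhl20, which acts on DAPK1 and on ULK1, had 337 and 342, a log2 ratio of 0.02, and Klhl24, which acts on intermediate filaments, had 499 and 540, a log2 ratio of 0.12. Klhl25, an adaptor for a translation repressor and for ATP citrate lyase, had 681 and 604, a log2 ratio of -0.17, but 0.13 with its second probe. None of these 5 passed its spot error.

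Among the kelch genes of this group that handle membrane traffic, kinases and synapses, values were likewise small. Klhl12, which ubiquitylates SEC31 in vesicle coats, stood at a log2 ratio of 0.06, and Klhl2, an adaptor for WNK kinases, at 0.29 (93.2 in the control and 114 in the C26 sample). Klhl8, an adaptor for rapsyn at the neuromuscular junction, stood at -0.09, Klhl17 at -0.17, Klhl18 at 0.11 and Klhl7 at 0.24. Kbtbd7, an adaptor for TIAM1, stood at 0.24 and Kbtbd4 at -0.19. The dim Kbtbd8 (37.1 and 42.7) stood at 0.20, within its spot error of 0.29. Klhl15, a dim gene that acts on PP2A, stood at -0.37 (37.8 and 29.3). Klhl3, the closest relative of Klhl2, passed the background mark in the C26 sample only (16.8 and 24.9). Its log2 ratio was 0.57 (error 0.44). Set against the lowest signal well above background on the control array, 18.1, its C26 value was 1.38-fold higher. Probes brighter than 18.1 could still fail the mark there, such as Klhl23 at 22.6, so 1.38-fold is not a strict bound.

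The remaining kelch genes, with less known or more restricted roles, held both lower calls of the kelch side. Klhl29 had 173 in the control and 113 in the C26 sample, a log2 ratio of -0.61 (error 0.21), or 1.53-fold lower. A second, dim Klhl29 probe passed the background mark in the C26 sample only, at 17.3 and 21.9. Its log2 ratio of 0.34 (error 0.43) lay within the spot error, so that probe gives no direction. Klhl6, a gene of B lymphocytes that acts in germinal centres, had 28.3 and 16.3, a log2 ratio of -0.79 (error 0.39), or 1.73-fold lower. Klhl6 sat close to the background floor on the C26 array, and its ratio was -0.15 with normexp correction. Lymphocyte markers were detected beside it: 8 of 12 were measured, 5 of these lay below 0, their summed scaled signal was 5935 in the control and 6422 in the C26 sample, and Cd79b of B cells stood at -0.64. Their part in the Klhl6 value was not tested. In tissue RNA, fewer cells of a type and less RNA per cell cannot be told apart.

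The other 8 measured kelch genes lay between -0.16 and 0.37. Kbtbd3 led at 0.37 (44.3 and 57.4), followed by Klhl10, a testis gene that was barely above background (24.7 and 31.3), at 0.34, and Klhl26 at 0.31 (494 and 611). Klhl5, Klhl36, Klhl28, Kbtbd11 and Klhl32 stood at 0.14, 0.04, -0.12, -0.14 and -0.16, each within its spot error. Klhl11 (17.0 and 27.0) passed the background mark in the C26 sample only, at a log2 ratio of 0.67 (error 0.41). Set against the control mark of 18.1 it was 1.49-fold higher, again not a strict bound. Klhl23 (22.6 and 25.1) also passed it there only, and its values differed by less than the spot error. Klhl1, a brain gene, and Klhl4, Klhl14 and Klhl35 were not well above background on either array.

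The ASB genes with broader or non-muscle expression were the most level group. All 6 measured lay within 1.2-fold, as did 63.5% of all measured genes and 64.7% of the 51 measured members. Whether so small a group differs from these shares was not tested. Asb6, an adaptor for an insulin receptor substrate, had 698 and 822, a log2 ratio of 0.24; Asb4 stood at 0.14, Asb7 at 0.12, Asb13 at 0.08 and the dim Asb3 at -0.22. Asb1 was read from 10 control and 9 C26 spots, and had the smallest error of the family: its scaled signal was 707 in the control and 712 in the C26 sample, a log2 ratio of 0.01 (error 0.07). The standard deviation between its spots was 0.05 and 0.04 on the log2 scale. Asb9, which targets brain-type creatine kinase, and Asb17, a testis gene, were not well above background on either array.

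**Figure D4:**
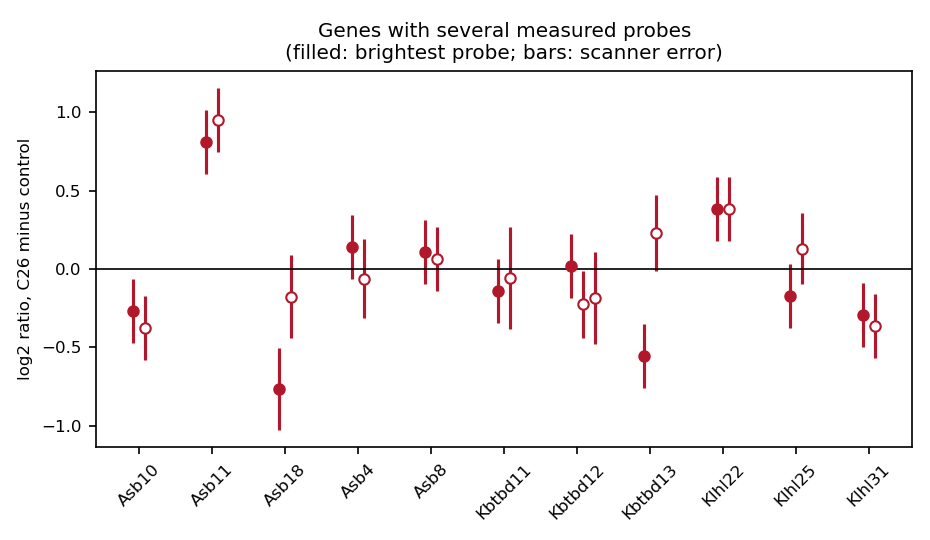
log2 ratio of C26 minus control (vertical axis) for every measured probe of the 11 genes that had several, the brightest filled and the others open, with the scanner software's error as bars. The Asb11, Klhl22, Klhl31 and Asb10 probes lie together, whereas those of Kbtbd13 (-0.56 and 0.23) and Asb18 (-0.77 and -0.18) lie apart.

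Probes of the same gene gave the same sign in 7 of the 11 genes with several measured probes. The 4 with both signs were Kbtbd13, Klhl25, Asb4 and Kbtbd12, of which Kbtbd13 alone had a probe more than 2 spot errors from 0. Klhl38 and Asb2 had 1 probe each, so their ratios have no second probe to be read against.

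**Figure D5:**
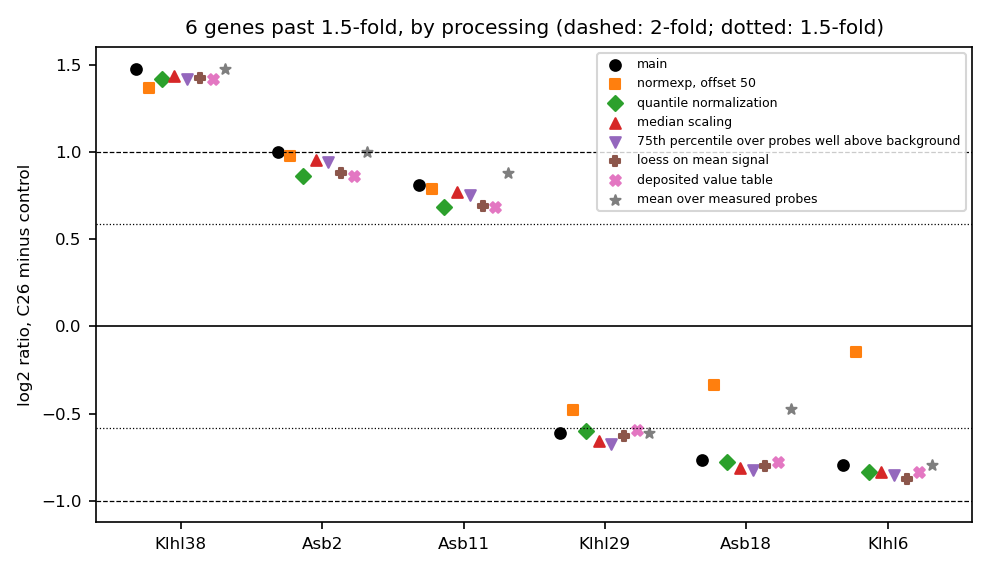
log2 ratio of C26 minus control (vertical axis) of the 6 genes past 1.5-fold, with 1 symbol for each way of processing the arrays; dashed lines mark 2-fold and dotted lines 1.5-fold. Klhl38 (1.37 to 1.48), Asb2 (0.86 to 1.00) and Asb11 (0.69 to 0.88) keep their place, whereas Asb18 and Klhl6 move toward 0 with normexp correction, to -0.34 and -0.15.

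The upstream sequence of the family was read from RefSeq (GRCm38.p6) for the 54 genes that matched, in 71 windows of the 250 bases before a gene start, since some genes have several starts. No window was read for Klhl38, Klhl30, Klhl8, Klhl24, Klhl14, Asb3 and Kbtbd11. The higher genes Asb2 and Asb11 are shown first. The capitals in the first Asb2 window mark a CArG box, the motif of serum response factor; the other windows held no CArG box, no MEF2 match, no CAGCTG and no GTAAACA. The Asb2 windows are chr12:103356002-103356251 and chr12:103338391-103338640 on the minus strand, and that of Asb11 is chrX:164436744-164436993 on the plus strand, each written 5′ to 3′ along the gene. These letters are a description, not a binding site.
Asb2 upstream start: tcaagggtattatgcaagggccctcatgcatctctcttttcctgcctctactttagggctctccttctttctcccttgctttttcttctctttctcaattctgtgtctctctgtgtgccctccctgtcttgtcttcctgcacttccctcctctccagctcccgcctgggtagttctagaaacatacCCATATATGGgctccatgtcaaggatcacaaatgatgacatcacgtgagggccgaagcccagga
Asb2 downstream start: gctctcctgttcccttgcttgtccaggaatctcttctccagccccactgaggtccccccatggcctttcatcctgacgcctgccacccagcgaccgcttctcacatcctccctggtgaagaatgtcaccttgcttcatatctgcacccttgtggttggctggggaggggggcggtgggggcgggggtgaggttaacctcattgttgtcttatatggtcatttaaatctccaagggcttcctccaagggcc
Asb11: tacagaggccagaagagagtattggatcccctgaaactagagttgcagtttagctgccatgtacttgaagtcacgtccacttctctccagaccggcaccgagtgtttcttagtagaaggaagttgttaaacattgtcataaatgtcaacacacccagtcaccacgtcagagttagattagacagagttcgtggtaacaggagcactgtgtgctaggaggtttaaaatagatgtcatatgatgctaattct

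The MEF2 consensus is the motif of a family of muscle transcription factors. A match was found in 7 of the 71 windows (9.86%) and in 2.92% of the 32851 windows of all genes. All 7 belonged to muscle kelch or muscle ASB genes, of which 16 had a window (20 windows, 35.0% with a match). The search was chosen after the values were seen. Stretches of 30 bases holding the matches are shown because the match recurs among these muscle genes, with the match in capitals, 5′ to 3′ along the gene.
Klhl41, chr2:69670047-69670076, plus strand: gagccggtgtCTATATTTAGccggtgggat
Kbtbd12, chr6:88627501-88627530, minus strand: ctcgcttggtCTATTTATAGtgcttgtcag
Asb5, chr8:54571348-54571377, plus strand: agtctctgctTTAAAAATAGaaaatggtac
Asb12, chrX:95478158-95478187, minus strand: ggagggcagaCTAAAAATAGccacctagaa
Asb14, chr14:26894574-26894603, plus strand: tatagtaaagCTATTTATAAtggtcaccgg
Asb16, chr11:102268683-102268712, plus strand: agtgaggggcCTATTTATAGcctcagctgt
Asb18, chr1:90014667-90014696, minus strand: cggtaacccagccctgattCTATTTATAGc
The 7 genes with a match had log2 ratios from -0.77 (Asb18) to 0.23 (Klhl41), and neither Asb2 nor Asb11 was among them.

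Both strands were searched for 11 motifs in all. The forkhead core GTAAACA was in 2 of the 71 windows (Asb16 and Asb18), or 2.82%, against 3.17% of all windows. The CArG box was in 2, Asb2 and Asb5, or 2.82%, against 1.47%. The steroid receptor core AGAACA was in 13 windows (18.3%, against 16.1% of all) and the E-box CAGCTG in 13 (18.3%, against 13.0%). Each of these sets of 13 windows came from 12 genes. The STAT motif TTCNNNGAA was in 3 (4.23%, against 7.02%). The ATF4 core TGATGNAA was in 1 (1.41%, against 3.45%) and the cyclic AMP element TGACGTCA in 1 (1.41%, against 1.55%). TATAAA was in 9 (12.7%, against 12.4%), which can overlap the MEF2 consensus. CACCC was in 69.0% against 52.0%, and GGGCGG in 45.1% against 32.7%. Among the higher genes, Asb2 and Asb11 shared no motif of this set apart from CACCC, which most windows held. In Asb2 it was in the window of the downstream start only, and Klhl38 had no window.

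Core genes of cullin-RING ligases, among them those that these adaptors dock on, were nearly level, most of them slightly above 0. The list also holds cullins other than Cul3 and Cul5, such as Cul1, Cul7 and Cul9. Of 14 cullins, RING partners and linkers, all measured, none was 1.5-fold different, against 9.19% of all measured genes. Of these 14, 11 (78.6%) lay above 0 (10 or 11 under the other scalings), against 56.5% of all measured genes. Their median log2 ratio was 0.17, against 0.04. Cul3, the scaffold of the kelch adaptors, had 2042 in the control and 2297 in the C26 sample, a log2 ratio of 0.17 (error 0.20). Cul5, the scaffold of the ASB adaptors, had 345 and 390, a log2 ratio of 0.18 (error 0.21). Elongins B and C (Elob and Eloc), which link the SOCS box to the cullin, stood at 0.21 and -0.06, and the RING proteins Rbx1 and Rnf7 at 0.14 and -0.04. None of these 4 exceeded its spot error by much. Cul9 was the highest of the whole list at 0.53, with Cul7 the lowest at -0.15.

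The genes that switch cullins on and exchange their adaptors were level as well. Of 23 neddylation, COP9 signalosome and CAND genes, all measured, none was 1.5-fold different, against 9.19% of all measured genes. The median was 0.04. Cand2, the muscle form of the adaptor exchange factor, was the lowest, at 2133 in the control and 1528 in the C26 sample, a log2 ratio of -0.48 (error 0.20). Uba3, a subunit of the NEDD8-activating enzyme, followed at -0.40. Cops2 and Ube2m were the highest at 0.33 and 0.24.

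Other adaptors with a BTB domain or a SOCS box had medians of 0.05 and 0.04. Of all measured genes, 4.37% were 1.5-fold higher and 4.83% were 1.5-fold lower. Of 26 measured BTB adaptors of cullin-3 that the name rule did not take in, 1 was 1.5-fold higher and none lower, with a median of 0.05. That gene was Enc1, a kelch protein of neurons and fat cells, at 155 in the control and 254 in the C26 sample, a log2 ratio of 0.71 (error 0.07). Keap1, the kelch adaptor that holds NRF2 down, had 4835 and 6415, a log2 ratio of 0.41, and Btbd9 and Kctd17 were the lowest at -0.17 and -0.16. Of 26 measured SOCS box and related adaptors other than ASB genes, several of which serve cullin-2 rather than cullin-5, none was 1.5-fold higher and 1 was lower, with a median of 0.04. Socs1, an inhibitor of cytokine signalling, was that gene at -0.59 (159 and 106), followed by Spsb4 at -0.49, while Socs3 and Klhdc3 led at 0.38 and 0.34. The difference between these lists and the kelch and ASB genes was not tested.

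Among reported substrates and partners of the adaptors, 3 of 30 measured were at least 2-fold higher (2 or 3 under the other scalings) and none lower, against 1.25% and 1.15% of all measured genes, and the list median was 0.06. The 3 were Pik3r1, the p85 alpha substrate of Kbtbd2, at 236 and 573 with a log2 ratio of 1.28 (error 0.21), Eif4ebp1, the translation repressor 4E-BP, at 1.21 (6407 and 14832), and Bik, an apoptosis gene reported for ASB11, at 1.07 (33.1 and 69.4). For the partners of Asb2, Flnc (filamin C) had 20586 and 27279, a log2 ratio of 0.41 (error 0.20), Des (desmin) had 0.36 (error 0.06), and Flna had -0.07. For those of Klhl40 and Klhl41, Neb (nebulin) stood at 0.03 with its brightest probe and at up to 0.41 with others. Lmod3 (leiomodin-3) stood at -0.58 (16313 and 10918) and Nrap at 0.65 (34541 and 54086), while Lmod2 had 0.94. The transcripts of thin filament partners thus pointed in different directions. Irs1, a reported substrate of Klhl9, stood at -0.77 with its brightest probe and at -0.34 with another, and Acly at -0.59.

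The labelled tissue was borne out by its markers, since all 20 muscle fibre genes were measured, with a median log2 ratio of 0.05 (between -0.11 and 0.05 across scalings) and 1 of them 1.5-fold lower, Casq1 at -0.60. Markers of several other cell types differed between the arrays: the median was -0.92 for fibroblasts (11 of 11 measured), -0.34 for macrophages (11 of 12), -0.19 for lymphocytes (8 of 12), 0.48 for endothelium (11 of 11), 0.35 for adipocytes (8 of 8), and 1.61 for red cells (6 of 9). The 4 of 9 neutrophil markers measured were split, with S100a8 at 2.46 and S100a9 at 2.35 against Csf3r at -0.26 and Camp at -0.02, so their median of 1.17 (0.78 to 1.17 across scalings) describes none of them. The median was -0.09 for satellite cells (6 of 7, with Myod1 at 1.42), 0.04 for Schwann cells (8 of 8) and 0.11 for epithelium (5 of 10). Their part in the values of Klhl38, Asb2 and Asb11 was not tested.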

How the data were processed

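Total RNA was labelled with Cy3 and read on 1-colour Agilent arrays. Per the file headers, the image software was Feature Extraction (Agilent) version 10.7.1.1 with mm9 probe positions, whereas the submitters' processing notes list 9.5.1.1. The deposited intensity values are background-subtracted, detrended processed signals; a surrogate replaced 31.9% (control) and 25.6% (C26) of non-control spots. Both arrays carried the same scan time. Spots with an outlier flag were left out (110 and 91), spots of a probe were averaged as log2, each array's 75th percentile was subtracted, and the brightest probe stood for a gene. Measured genes had that probe over background in both samples by the scanner's own flag. The authors' deposited value table, whose making is not stated, has linear values with a median of 19.8 in both columns; its log2 ratios lay within 0.01 of those from quantile normalization for 90.0% of probes. Names were matched to RefSeq (GRCm38.p6), changed or not, for 31381 of 55680 probes.

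With 1 array per group there was no test; genes were counted at 2-fold and 1.5-fold, and the procedure was tested on simulated data. Among 273 probes with at least 8 copies the median standard deviation between copies was 0.07 and 0.06 (log2). The members, gene groups and lists were chosen with earlier results of these data known. Named genes are all members, with values for both arrays for muscle genes, those past 1.5-fold and the extremes, and, from other lists, genes past 2-fold and the 2 highest and 2 lowest, from which examples were taken; other named partners and markers were chosen for their role after their values were seen. Motifs were also chosen then, and were first searched over 300 bases, then over the 250 before the start. Alternatives were normexp, 4 other scalings, 2 other filters, the mean over probes and the deposited table. Python 3.11.15 (pandas 2.3.3) and limma 3.58.1 were used. Some items are not reported here.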

Additional observations from a re-analysis of the deposited data

How the results depend on the processing

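Klhl38 was past 2-fold under every alternative run, and Klhl38, Asb2 and Asb11 were past 1.5-fold under every one. The count of genes at least 2-fold higher, 2 in the report, was 1 with loess, normexp correction, scaling to the median, quantile normalization, a 75th percentile taken over detected probes, and the deposited value table, because Asb2 then fell short. The count at least 1.5-fold lower, 3 in the report, was 0 with normexp correction, 1 (Klhl29) with the stricter filter on dim probes, which kept 42 of the 51 genes, 2 (without Asb18) with the mean over probes, and 4 (with Kbtbd13) with loess and with scaling to the median or to the 75th percentile of detected probes. With no filter, dim genes enter: 1 gene (Klhl4) was 2-fold lower, 5 were 1.5-fold higher and 6 were 1.5-fold lower. The family median lay between -0.02 and 0.07, its sign turning with the scaling as did that of all genes. Of 357 values of single genes under alternatives, 6 moved by more than the spot error: Asb18 and Klhl6 as given in the report, Klhl15 to -0.03 with normexp, Kbtbd13 to -0.16 and Asb18 to -0.47 with the mean of probes, and Asb1 to -0.06 with the deposited table. In all, 8 of the 51 genes changed sign in some alternative, at values between -0.13 and 0.11. Dim signals limit the precision of Klhl6, Klhl10, Klhl32, Klhl15, Kbtbd8 and Asb18, with spot errors between 0.26 and 0.39. No paired analysis was possible because each group has 1 array.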

Other observations

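Several kelch and ASB genes lie within 500 kb of each other by their mm9 probe positions, and their values are given side by side. Klhl30 and Asb1 lie 197 kb apart on chromosome 1, at log2 ratios of -0.11 and 0.01. Klhl6 and Klhl24 lie 180 kb apart on chromosome 16, at -0.79 and 0.12, and Klhl7 and Asb10 lie 373 kb apart on chromosome 5, at 0.24 and -0.27. Asb9 lies 80.6 kb from Asb11 on chromosome X and was not well above background on either array, whereas Asb11 was 1.76-fold higher in the C26 sample. Klhl41 and Klhl23 lie 158 kb apart on chromosome 2, Klhl41 at 0.23 and Klhl23 over background in the C26 sample only. Klhl10 and Klhl11 lie 6.40 kb apart on chromosome 11, both dim.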
